A study of Mus musculus with 12 samples.

Results

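Thyroid hormone and thyrotropin signalling was followed in subcutaneous white adipose tissue (scWAT), the fat under the skin, through 6 genes chosen by name. They are the deiodinases Dio2 and Dio1, the transporter Slc16a10, the nuclear receptors Thra and Thrb, and the thyrotropin receptor Tshr, out of 55401 genes counted in each library. Of the 6, 5 passed the filter on low counts and were tested among 16540 genes. Dio1 did not pass. The 12 libraries came from female mice, 3 in each of 4 groups, which were 16 weeks old when the treatment began and had all been kept at 30°C for 1 week beforehand. Wild-type (WT, Jmjd1a +/+) and Jmjd1a HY/HY mice then stayed at 30°C, at which a mouse needs little extra heat, or were moved to 8°C, each for 1 week. The HY allele replaces a histidine of the histone demethylase JMJD1A with tyrosine (H1122Y) and removes its enzyme activity. It was made in the germ line with CRISPR-Cas9 in C57BL/6J eggs, so it was present in the whole animal, the thyroid and the brain included, and not in fat alone. Of a pair of HY lines, the study states that its females were taken from line 1, and the labels name no line.

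The thyroid secretes mainly thyroxine, which enters cells through transporters and is converted by the deiodinases DIO1 and DIO2 to triiodothyronine, the form that binds the receptors THRA and THRB on DNA. DIO1 is best known from liver and kidney, whereas DIO2 makes the hormone inside the cell that uses it and is strongly induced in brown and beige adipocytes when noradrenaline raises cyclic AMP. Thyrotropin, the pituitary hormone that drives the thyroid, acts through TSHR, a receptor that raises cyclic AMP and is also present on adipocytes.

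The bases before the start sites of Dio2 and Thrb are shown because these are the members with a higher level at 8°C in WT mice. The RefSeq promoter table for GRCm38.p6, the coordinates of mm10, had 5 windows for 4 of the 6 members, namely Dio2, Dio1, Slc16a10 and Thrb. Each of its 32851 windows runs from 250 bases before a start site to 50 after it. The 250 bases before the start are printed here for Dio2 (chr12:90739039-90739288, minus strand) and for the first of the Thrb starts (chr14:17660710-17660959, plus strand). Capitals mark the cyclic AMP response element TGACGTCA, its shorter form TGACG, and AGGTCA, the core bound by thyroid hormone receptors and other nuclear receptors.
Dio2: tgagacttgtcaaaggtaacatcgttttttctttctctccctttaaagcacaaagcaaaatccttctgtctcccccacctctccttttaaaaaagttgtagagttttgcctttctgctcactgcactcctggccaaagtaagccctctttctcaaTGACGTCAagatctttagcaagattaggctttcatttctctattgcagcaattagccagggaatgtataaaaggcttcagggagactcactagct
Thrb: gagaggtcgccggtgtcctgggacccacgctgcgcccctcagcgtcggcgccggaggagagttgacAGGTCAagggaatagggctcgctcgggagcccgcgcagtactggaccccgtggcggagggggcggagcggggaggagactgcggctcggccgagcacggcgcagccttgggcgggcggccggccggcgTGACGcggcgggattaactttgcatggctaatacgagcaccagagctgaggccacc
In the Dio2 window TGACGTCA lay from 95 to 88 bases before the start site. On either strand, 1.79% of all windows held TGACGTCA, 20.8% held TGACG, which TGACGTCA contains, and 16.3% held AGGTCA. The Thrb window held AGGTCA from 184 to 179 and TGACG from 56 to 52 bases before the start. AGGTCA repeated with 4 bases between, present in 0.0152% of the windows, was found in no window of a member. The other Thrb window and those of Dio1 and Slc16a10 held none of these letters. A match describes the sequence and is not a measured binding site.

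Sense-strand counts per library ranged from 18305586 to 26352081 at 30°C and from 13592629 to 17955584 at 8°C. Levels are given as CPM, the count of a gene relative to its library total after scaling by the TMM method. Kdm3a, the gene of JMJD1A, lay between 35.7 and 61.7 CPM in all groups, and counts do not tell its alleles apart. The adipocyte markers were abundant throughout, with summed levels of 8 white adipocyte genes from 14551 to 41949 CPM. Of 8 thyroid follicle genes, 7 had too few counts for a test, and thyroglobulin (Tg) had at most 3 counts in a library. The exception was the iodide transporter Slc5a5, which mammary epithelium also uses. Replicate 2 of WT mice at 30°C carried muscle RNA, with a summed level of 8 muscle genes of 1335 CPM against 3.94 to 24.1 CPM in the other 11 libraries. In bulk tissue, fewer cells of a type and less RNA per cell cannot be told apart.

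In WT mice Dio2 and Thrb were called higher at 8°C, 2 of the 5 members tested, against 10.3% of all genes called higher and 6.93% called lower. For a call, the quasi-likelihood test of edgeR had to give a p under 0.05 after Benjamini-Hochberg adjustment over all genes, together with a fold change above 1.5 or below 0.67. No member was called by cold in HY/HY mice, where 0.181% of all genes were higher and 0.0665% lower. There 2 members had an unadjusted p under 0.05, and DESeq2 called 1. Between the genotypes Tshr was called higher in HY/HY mice at 8°C, where 1.51% of all genes were higher and 4.42% lower. At 30°C no member was called by edgeR, 2 had an unadjusted p under 0.05 and DESeq2 called 1, with 0.562% of all genes higher and 0.441% lower. The difference between the cold responses, HY/HY minus WT, was called for none of the 5 by edgeR or DESeq2 and none had an unadjusted p under 0.05, while 0.169% of all genes were higher and 2.07% lower by that measure, for which the adjusted p alone decided. After the values had been seen, the cold response was also averaged over the genotypes (7.29% of all genes higher, 4.96% lower) and the genotype difference over the temperatures (2.13% higher, 2.27% lower). Dio2 was called in the former and Tshr in the latter, 1 member each.

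**Figure D1:**
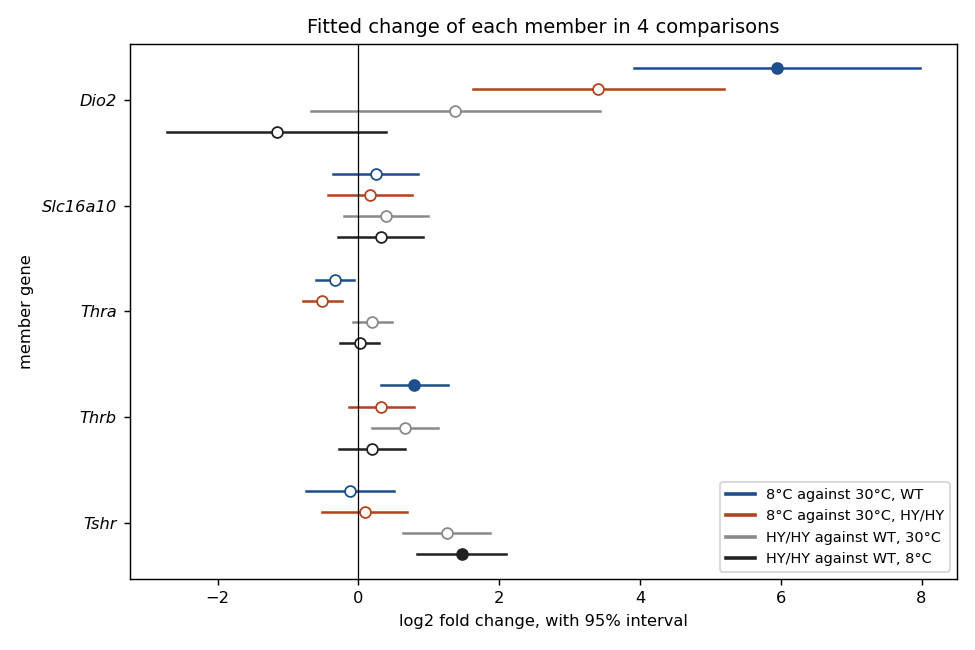
Fitted log2 fold change of the 5 members tested, with lines for the 95% intervals, for cold in each genotype and for HY/HY against WT at each temperature. Filled points were called. The interval of Dio2 lies far above 0 for cold in both genotypes, whereas Tshr stands above 0 only in the comparisons of genotype.

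On a scale that corrects for gene length, CPM per kilobase of exons, the members stood in the same order in both genotypes at 30°C, and Dio2 moved up in it at 8°C. The order in WT mice at 30°C was Thra at 18.2 ± 1.57, Tshr at 5.67 ± 0.955, Slc16a10 at 2.93 ± 0.991, Thrb at 1.44 ± 0.185 and Dio2 at 0.188 ± 0.109 CPM per kilobase (SD, n = 3), and no neighbours in it overlapped between libraries. In WT mice at 8°C Dio2 had moved to the second place, at 11.7 ± 2.0 CPM per kilobase against 14.4 ± 0.0667 for Thra, again with no overlap between neighbours. In HY/HY mice Tshr stood next to Thra, at 13.5 ± 4.53 against 20.8 ± 3.78 CPM per kilobase at 30°C and 14.4 ± 5.76 against 14.6 ± 0.959 at 8°C, and the libraries of this pair overlapped at both temperatures. Slc16a10 and Thrb also overlapped in HY/HY mice at 30°C, and Dio2, at 5.23 ± 2.49 CPM per kilobase, overlapped Slc16a10 in HY/HY mice at 8°C. The distance of Thra from the other members depended on the length used. With the longest transcript in place of all exons, its mean in HY/HY mice was 39.2 at 30°C and 27.5 at 8°C. Tshr was then at 15.3 and 16.3. In WT mice at 8°C Thra was then at 27.1 and Dio2 at 11.7.

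**Figure D2:**
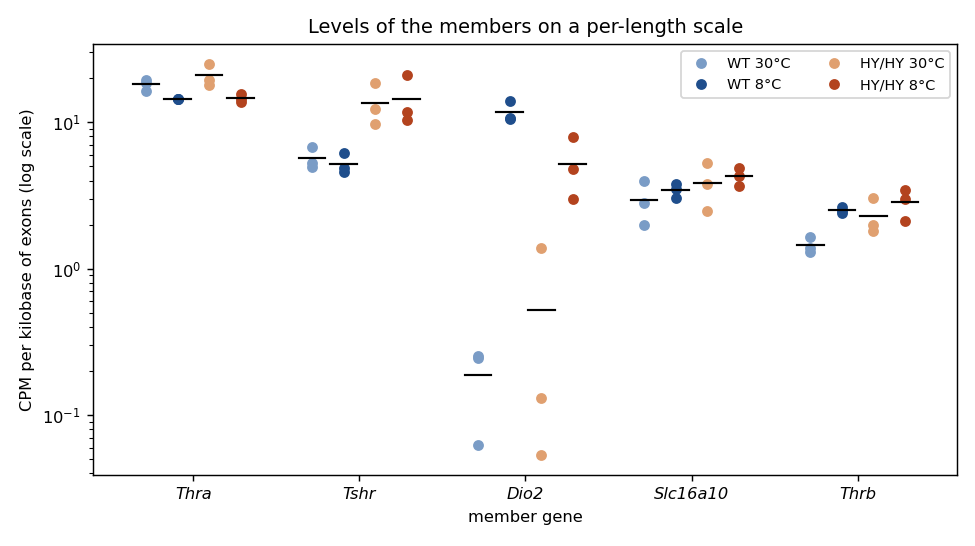
CPM per kilobase of exons on a log scale for each library (points) and the mean of 3 libraries (bars), by group. Dio2 spans the widest range, from below 0.1 in single libraries at 30°C to 14 in a WT library at 8°C, while Thra stays between 13.8 and 25.1.

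Dio2 (ENSMUSG00000007682.6, chr12:90724552-90739038) encodes the deiodinase that makes triiodothyronine within the adipocyte. In WT mice at 30°C it was at 0.363, 1.48 and 1.43 CPM, from 8, 41 and 27 counts, and at 8°C at 61.2, 61.6 and 81.6 CPM, from 824, 817 and 1272 counts. Every library at 8°C was thus far above every library at 30°C. The fitted fold change was 61.7 (95% interval 15.1 to 252), a log2 fold change of 5.95 ± 0.93 (SE, edgeR adjusted p = 0.00101).

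In the HY/HY groups Dio2 was at 0.31, 0.757 and 8.11 CPM at 30°C and at 45.9, 27.9 and 17.3 CPM at 8°C. The groups did not overlap, and replicate 3 at 30°C, with 156 counts, stood above the other HY/HY libraries at that temperature, which had 8 and 22. The fitted fold change of 10.6 (95% interval 3.08 to 36.5, log2 3.41 ± 0.82 SE) did not pass the threshold in edgeR (adjusted p = 0.113). It passed in DESeq2 (log2 3.32, adjusted p = 0.036) and without a filter on low counts (log2 3.39, edgeR adjusted p = 0.0125), and without replicate 3 at 30°C it was 5.79 on the log2 scale (edgeR adjusted p = 0.0031). In 16 of 20 alternatives it did not pass, with an edgeR adjusted p of up to 0.344 when only the libraries compared were fitted. The cold responses of Dio2 differed by −2.54 on the log2 scale (95% interval −5.11 to 0.031, edgeR adjusted p = 0.34), an interval that spans a response nearly the same in both genotypes and one that was far smaller in HY/HY mice. This difference was −0.16 without replicate 3 of HY/HY mice at 30°C (edgeR adjusted p = 0.954) and −3.10 without replicate 1 of that group.

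At 8°C all 3 HY/HY libraries had less Dio2 than all 3 WT libraries, with a mean of 30.4 ± 14.5 against 68.2 ± 11.6 CPM (SD, n = 3). The fitted difference was 2.24-fold lower in HY/HY mice (log2 −1.16, 95% interval −2.72 to 0.39) and did not pass (edgeR adjusted p = 0.374). Fitted to the 6 libraries of this comparison alone it was −1.15 with an edgeR adjusted p of 0.0302, and in the other 19 of 20 alternatives it did not pass. At 30°C the libraries of the genotypes overlapped, the log2 difference was 1.38 (95% interval −0.68 to 3.43, edgeR adjusted p = 0.465), and without replicate 3 of HY/HY mice at 30°C it was −1.0. Averaged over the temperatures the genotype difference was 0.11 (−1.16 to 1.37, edgeR adjusted p = 0.931), and −1.08 without that library.

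Markers of thermogenic adipocytes, taken as a sum, were higher at 8°C in both genotypes, as was Dio2. The summed level of 6 of them was 69.9 to 197 CPM in WT mice at 30°C and 8274 to 9164 CPM at 8°C, where all 6 were called higher. In HY/HY mice it was 60.6 to 223 CPM at 30°C and 508 to 1638 CPM at 8°C, with 3 of the 6 called higher by cold and all 6 lower than in WT mice at 8°C. Among the HY/HY libraries at 8°C the sum was highest in replicate 2 (1638 CPM), whereas Dio2 was highest in replicate 1 (45.9 CPM). Ucp1, the uncoupling protein that releases the energy of respiration as heat, was at 610.5, 904 and 212 CPM in HY/HY replicates 1 to 3 at 8°C and at 5048 to 6055 CPM in WT mice. In the HY/HY library at 30°C with 8.11 CPM of Dio2, Ucp1 was at 1.61 CPM, within the 0.116 to 1.96 CPM of its group. But the summed level of the 6 markers was the highest of that group (223 against 60.6 and 100.4 CPM), as was Ppargc1a at 10.2 CPM. That library also had the highest white adipocyte sum of its group (39356 against 22038 and 14551 CPM). Its mammary epithelial sum was the lowest (536 against 1421 and 1488 CPM). Other markers moved too in WT mice at 8°C: 4 of 5 endothelial genes were called higher (summed level 855 to 1161 against 451 to 718 CPM) and 2 of 7 mammary epithelial genes lower (1388 to 1527 against 2067 to 3725 CPM). Of 7 skeletal muscle genes tested, 6 were called lower (median log2 −5.78 over the 7), with a summed level of 3.94 to 12.5 CPM at 8°C against 10.8, 1335 and 24.1 CPM at 30°C. Of 8 white adipocyte genes, the adipokine Lep alone was called (lower, log2 −1.38, edgeR adjusted p = 0.0494). The median log2 fold change over the 8 was 0.068, with a summed level of 23766 to 31173 CPM against 16081 to 26910 CPM at 30°C. Of the progenitor and fibroblast genes 1 of 6, and of the Schwann cell and nerve genes 1 of 4, were called higher. Whether any of these had a part in the values of Dio2 or of the receptors was not tested.

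**Figure D3:**
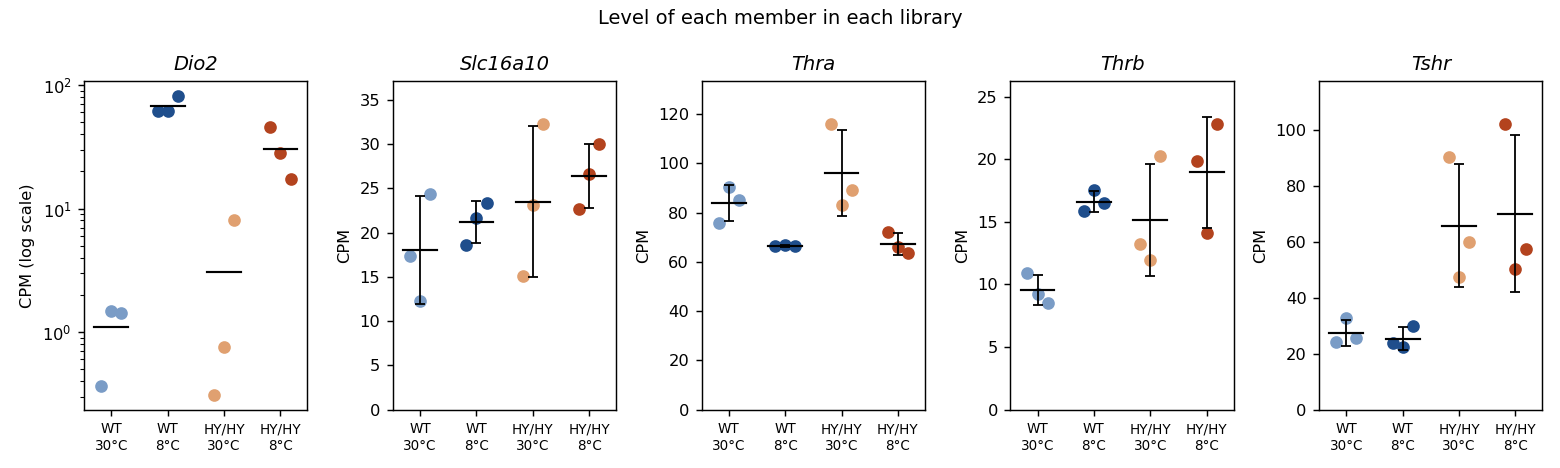
CPM of Dio2 (log scale), Slc16a10, Thra, Thrb and Tshr in each of the 12 libraries (points, replicates 1 to 3 from left to right), with the mean (bar) and, where the axis is linear, the SD (n = 3). Dio2 separates by temperature, Thra is lower in every library at 8°C, and Tshr separates by genotype.

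Dio1 (ENSMUSG00000034785.14, chr4:107291465-107307168), the other activating deiodinase, had 3 counts in all 12 libraries together. There was 1 count in a WT library at 30°C and 2 in an HY/HY library at 30°C, and the other 10 libraries had 0. A count of 0 allows up to 3 counts, which corresponds to between 0.103 and 0.244 CPM depending on the library, and such limits cover counting error only. Dio3, the deiodinase that inactivates the hormone, had 12 counts in all, 11 of them in the WT library at 30°C that carried muscle RNA. Of the deiodinases, Dio2 alone had enough counts for a test.

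Slc16a10 (ENSMUSG00000019838.11, chr10:40033532-40142270) encodes a membrane transporter of thyroid hormones and aromatic amino acids. It was at 17.3, 12.3 and 24.4 CPM in WT mice at 30°C, 18.7, 21.7 and 23.4 at 8°C, and in HY/HY mice at 15.1, 23.1 and 32.3 at 30°C and 22.7, 26.6 and 30.0 at 8°C. The libraries overlapped in every comparison. Its log2 differences were 0.24 for cold in WT (95% interval −0.36 to 0.84), 0.17 for cold in HY/HY (−0.43 to 0.76), 0.39 between the genotypes at 30°C (−0.21 to 0.98) and 0.31 at 8°C (−0.29 to 0.91), with edgeR adjusted p from 0.479 to 0.813. A change of up to 1.80-fold by cold in WT mice lay within its interval. The cold responses differed by −0.074 (−0.92 to 0.77, edgeR adjusted p = 0.951), and the averaged differences were 0.21 for cold (edgeR adjusted p = 0.462) and 0.35 for genotype (edgeR adjusted p = 0.277).

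The receptor genes differed in the direction of their cold values: Thrb was called higher in WT mice, and Thra was lower in every library at 8°C without a call. Thrb (ENSMUSG00000021779.17, chr14:17659225-18040097), the receptor through which much of the metabolic action of the hormone in liver runs, was at 10.9, 9.20 and 8.56 CPM in WT mice at 30°C and 15.8, 17.5 and 16.5 at 8°C. All libraries at 8°C lay above those at 30°C, a 1.74-fold rise (95% interval 1.25 to 2.41, log2 0.80 ± 0.22 SE, edgeR adjusted p = 0.0213). This call was close to the threshold. It was lost without replicate 2 of WT mice at 30°C (edgeR adjusted p = 0.0676), without replicate 3 at 30°C (0.0516), and without replicate 2 (0.067) or replicate 3 (0.0599) at 8°C, with log2 fold changes between 0.73 and 0.80.

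Thrb in HY/HY mice was at 13.2, 11.9 and 20.3 CPM at 30°C and 19.9, 14.1 and 22.8 at 8°C. These libraries overlapped, and the log2 fold change was 0.32 (95% interval −0.14 to 0.79, edgeR adjusted p = 0.513). All 3 HY/HY libraries at 30°C lay above the WT libraries at 30°C, a log2 difference of 0.66 that did not pass (95% interval 0.19 to 1.13, edgeR adjusted p = 0.14). At 8°C the genotypes overlapped, with a log2 difference of 0.19 (−0.28 to 0.66, edgeR adjusted p = 0.664). The difference between the cold responses was −0.47 (−1.13 to 0.19, edgeR adjusted p = 0.499), and the averaged genotype difference was 0.42 (edgeR adjusted p = 0.104).

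Thra (ENSMUSG00000058756.13, chr11:98740776-98769006), the receptor known as the main form in heart and bone, was the most abundant member per kilobase in all 4 groups. It was at 75.9, 90.2 and 85.2 CPM in WT mice at 30°C and 66.4, 66.9 and 66.4 at 8°C, and in HY/HY mice at 116, 83.3 and 89.2 at 30°C and 72.3, 66.2 and 63.7 at 8°C. All 6 libraries at 8°C were below all 6 at 30°C. Within each genotype the difference did not pass the test (log2 −0.33, edgeR adjusted p = 0.0729 in WT, and log2 −0.51, edgeR adjusted p = 0.117 in HY/HY). Averaged over the genotypes it was −0.42 (95% interval −0.62 to −0.23, edgeR adjusted p = 0.00607), past the limit on p, but 1.34-fold is below the fold required for a call. Between the genotypes Thra had log2 differences of 0.20 at 30°C (−0.073 to 0.47, edgeR adjusted p = 0.424) and 0.019 at 8°C (−0.26 to 0.29, edgeR adjusted p = 0.953), where the sign turned in counts of both strands together (−0.028) and without replicate 1 of HY/HY mice at 8°C (−0.032). Its averaged genotype difference was 0.11 (edgeR adjusted p = 0.471), and its cold responses differed by −0.18 (−0.57 to 0.21, edgeR adjusted p = 0.68), or by 0.015 with library totals. For Thrb the averaged log2 difference was 0.56 (edgeR adjusted p = 0.0204), a 1.47-fold difference just short of the fold limit. Without replicate 1 of WT mice at 30°C, replicate 3 of HY/HY mice at 30°C or replicate 2 of HY/HY mice at 8°C the averaged Thrb difference was 0.61, 0.70 and 0.65 and was called.

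The scaling of the libraries mattered for Thra and Thrb. With library totals in place of TMM, the median cold response of all genes in WT mice moved on the log2 scale from −0.069 to −0.41. On that scale Thra was called lower (log2 −0.67, edgeR adjusted p = 0.0107) and Thrb was no longer called (log2 0.45, edgeR adjusted p = 0.0676). A ratio of the 2 receptors within a library does not depend on this choice. There were 6.95, 9.81 and 9.96 counts of Thra per count of Thrb in WT mice at 30°C and 4.19, 3.82 and 4.03 at 8°C. The ratio in HY/HY mice was 8.78, 6.97 and 4.40 at 30°C and 3.64, 4.69 and 2.79 at 8°C. The log2 ratio was 3.14 ± 0.293 at 30°C and 2.0 ± 0.0667 at 8°C in WT mice, and 2.69 ± 0.507 and 1.86 ± 0.373 in HY/HY mice (SD, n = 3), so that the temperatures overlapped in HY/HY mice alone, through replicate 3 at 30°C. The ratio was chosen after the values had been seen and is given without a test.

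**Figure D4:**
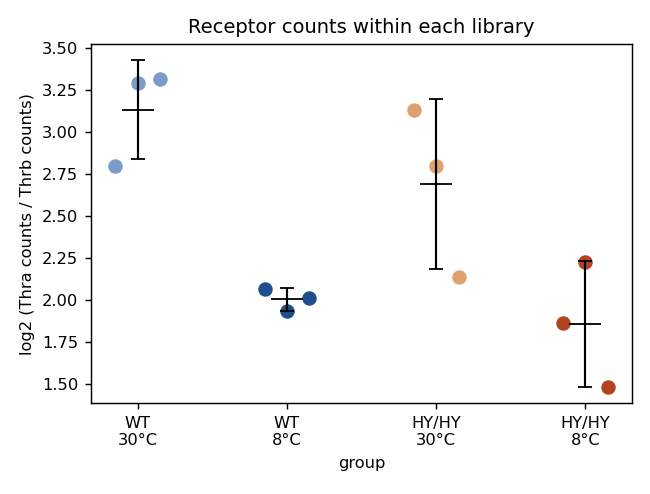
The log2 ratio of Thra to Thrb counts in each library (points, replicates 1 to 3 from left to right), with the mean and SD of 3 libraries. The WT libraries at 8°C lie between 1.94 and 2.07, below the WT libraries at 30°C, while replicate 3 of HY/HY mice at 30°C, at 2.14, is within the range of HY/HY mice at 8°C.

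Thra overlaps the clock gene Nr1d1 on the opposite strand over 1075 bases (chr11:98767932-98769006), so its strand counts were examined. Read pairs on the opposite strand of Thra came to 60.9% of its sense total, against at most 0.892% for the other members. The values above use the sense strand. In counts of both strands together, pairs in the overlap belong to both genes and were not assigned, and the mean log2 ratios of Thra to Thrb changed by less than the SD within each group. Nr1d1 itself was at 118 to 245 CPM in WT and 142 to 391 CPM in HY/HY mice at 30°C and at 173 to 216 and 155 to 233 CPM at 8°C.

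Tshr (ENSMUSG00000020963.15, chr12:91400993-91540509), the thyrotropin receptor, followed genotype and not temperature. It was at 24.2, 32.9 and 25.8 CPM in WT mice at 30°C and 23.7, 22.4 and 30.1 at 8°C, and in HY/HY mice at 90.3, 47.4 and 60.0 at 30°C and 102, 50.4 and 57.6 at 8°C. All 6 HY/HY libraries lay above all 6 WT libraries. At 8°C it was 2.76-fold higher in HY/HY mice (95% interval 1.79 to 4.26, log2 1.46 ± 0.29 SE, edgeR adjusted p = 0.0118). This call was lost without replicate 2 of WT mice at 8°C (log2 1.38, edgeR adjusted p = 0.0559).

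At 30°C Tshr was 2.38-fold higher in HY/HY mice (95% interval 1.56 to 3.65, log2 1.25 ± 0.28 SE), with an edgeR adjusted p of 0.058. The test was not passed in 17 of 21 alternatives, with an edgeR adjusted p of up to 0.213 when only the libraries compared were fitted. It was passed in DESeq2 (adjusted p = 0.00155), without a filter on low counts (edgeR adjusted p = 0.00723), with the replicate numbers as a block (edgeR adjusted p = 0.0393) and without replicate 2 of HY/HY mice at 30°C (edgeR adjusted p = 0.0479). Averaged over the temperatures it was 2.56-fold higher (95% interval 1.89 to 3.48, edgeR adjusted p = 0.00577). Cold changed its level by −0.12 on the log2 scale in WT mice (95% interval −0.74 to 0.50, edgeR adjusted p = 0.791) and by 0.090 in HY/HY mice (−0.51 to 0.69, edgeR adjusted p = 0.911), and both groups of libraries overlapped. Averaged over the genotypes the cold difference was −0.015 (edgeR adjusted p = 0.965). The genotype differences at the temperatures were not distinguishable from each other (log2 0.21, −0.66 to 1.08, edgeR adjusted p = 0.846).

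Some markers of other cells were also higher in HY/HY mice. The summed level of 5 macrophage genes was 156 to 158 and 118 to 133 CPM in WT mice at 30°C and 8°C, against 177 to 313 and 204 to 272 CPM in HY/HY mice. Of the 5, 2 were called higher in HY/HY mice at 8°C and 4 in the average over temperatures. The 6 genes of adipocyte progenitors and fibroblasts summed to 650 to 870 CPM in WT and 750 to 1651 CPM in HY/HY mice, with 2 called in the average. At 8°C Dcn alone of the 6 was called higher, while Pi16 and Cd34 had log2 differences of −0.70 and −0.52. Among 8 white adipocyte genes the adipokines Lep and Retn were called higher at 8°C. The summed level of the 7 mammary epithelial genes had the opposite order, with 536 to 1488 CPM in HY/HY against 2067 to 3725 CPM in WT mice at 30°C. At 8°C it was 901 to 1319 against 1388 to 1527 CPM, with 0 of the 7 called and a median log2 difference of 0.63. In the average over temperatures 2 were called lower. In HY/HY mice replicate 1 had the most Tshr at 30°C (90.3 CPM) and at 8°C (102 CPM). It also had the highest macrophage sum (313 and 272 CPM) and progenitor and fibroblast sum (1651 and 1516 CPM) of its group. The same held for the Schwann cell and nerve sum (144 and 93.6 CPM) and the B cell and lymph node sum (14.2 and 6.02 CPM). Its white adipocyte and mammary sums were not the highest at either temperature. WT replicate 2 had the most Tshr of its group at 30°C, the highest macrophage sum (158 CPM) and the lowest progenitor and fibroblast sum (732 CPM). WT replicate 3 had the most Tshr of its group at 8°C and the lowest macrophage sum (118 CPM). The part of these cells in the level of Tshr was not tested.

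Beside the members, 55 other genes of the pathway were listed in 6 lists, of which 44 were tested. By cold in WT mice edgeR called 14 of the 44 higher, against the 10.3% of all genes, and 0 lower, against 6.93%. Among those lower, 5 had an unadjusted p under 0.05 and DESeq2 called 0. The 44 had a median log2 fold change of 0.045 against −0.069 over all genes. Cold in HY/HY mice gave 1 call, that of Ucp1, where 0.181% of all genes were called higher and 0.0665% lower. The medians were 0.095 and −0.015, with 0 called lower by edgeR or DESeq2 and 1 lower at an unadjusted p under 0.05. Between the genotypes at 8°C edgeR called 4 of the 44 lower in HY/HY mice, against 4.42% of all genes, and 0 higher, against 1.51%. Among those higher, 4 had an unadjusted p under 0.05 and DESeq2 called 1. At 30°C, 2 of the 44 were called higher, against 0.562% of all genes, and 0 lower, against 0.441%. By DESeq2 or at an unadjusted p under 0.05, 0 were lower.

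The target list held most of these calls. Of 15 genes known from other work to respond to thyroid hormone, 10 were called higher by cold in WT mice, with a median log2 fold change of 1.28 over the list. They were Ucp1 (log2 11.41), the coactivator Ppargc1a (2.72), mitochondrial glycerol phosphate dehydrogenase Gpd2 (2.28), malic enzyme Me1 (2.22), Ucp3 (1.66), the fatty acid synthesis enzymes Acaca (1.58) and Fasn (1.48), the lipogenic regulator Thrsp (1.28), the glucose transporter Slc2a4 (0.91) and the calcium pump Atp2a2 (0.67). Thrsp lost its call without replicate 2 of WT mice at 30°C (edgeR adjusted p = 0.0801) or 1 (0.061) or 2 (0.0594) at 8°C, Slc2a4 without replicate 2 at 30°C (0.0737) or 2 (0.0523) or 3 (0.0545) at 8°C, and Atp2a2 without replicate 3 at 30°C, where its log2 fold change was 0.57. With library totals neither Atp2a2 (log2 0.33, edgeR adjusted p = 0.0946) nor Slc2a4 (log2 0.58, edgeR adjusted p = 0.0346, short of the fold limit) was called. The other 5 were not called, of which Klf9, Hr, Rcan2 and Pck1 had log2 fold changes from −0.42 to 0.44 and 1 is not reported here. Many of the 10 also belong to the cold programme of adipocytes in general, and the list does not separate the hormone from other signals. Among the 15, Ucp1 alone was called by cold in HY/HY mice (log2 8.87, edgeR adjusted p = 0.0042) and the median over the list was 0.16. That call held in 19 of 20 alternatives and was lost when only the libraries compared were fitted (edgeR adjusted p = 0.095).

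Among the targets, Me1 rose from 748 ± 144 to 3491 ± 397 CPM by cold in WT mice but was already at 3677 ± 2020 CPM in HY/HY mice at 30°C and at 3866 ± 638 at 8°C (SD, n = 3). Acaca had the same shape, at 662 ± 95.4 and 1981 ± 261 CPM in WT and 1742 ± 674 and 1470 ± 301 CPM in HY/HY mice. Both were called higher in HY/HY mice at 30°C (log2 2.30, edgeR adjusted p = 0.0187 for Me1 and log2 1.4, edgeR adjusted p = 0.0358 for Acaca). Both calls were lost with the libraries of that comparison alone (edgeR adjusted p = 0.213 and 0.214), that of Me1 without replicate 1 (0.0654) or 2 (0.054) of WT mice at 30°C, and that of Acaca in 9 of 21 alternatives, among them without any one WT library at 30°C (0.0578 to 0.109) or at 8°C (0.0556 to 0.0654) and without replicate 1 of HY/HY mice at 8°C (0.0561). Gpd2 and Ppargc1a, in contrast, were lower in HY/HY than in WT mice at 8°C, at 141 ± 34.4 against 356 ± 16.3 CPM and 10.5 ± 3.52 against 26.4 ± 9.17 CPM (log2 −1.33 for each, edgeR adjusted p = 0.00404 and 0.0346). Ucp1 was also lower there (log2 −3.25, edgeR adjusted p = 0.0253), although cold raised it within HY/HY mice. The call of Ucp1 was lost without any one library at 8°C other than replicate 2 of HY/HY mice (edgeR adjusted p of 0.0598 to 0.101). That of Ppargc1a was lost without replicate 2 or 3 of WT mice or 1 or 3 of HY/HY mice at 8°C (0.095 to 0.148).

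**Figure D5:**
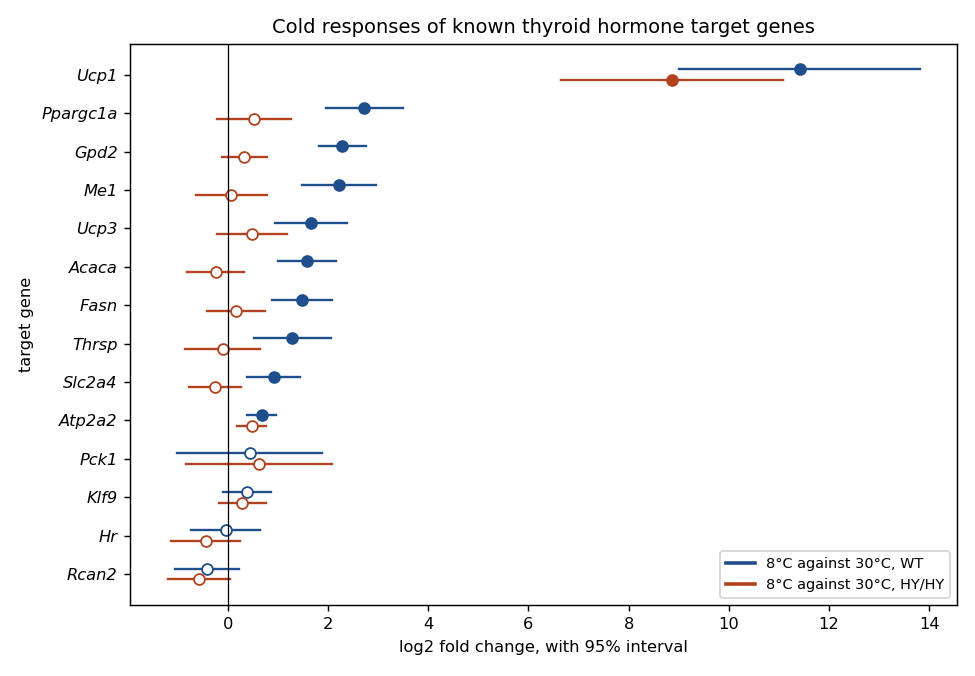
Log2 fold change by cold, with lines for the 95% intervals, of 14 of the 15 listed thyroid hormone target genes in WT and HY/HY mice, ordered by the WT value. Filled points were called: 10 genes in WT mice and Ucp1 in HY/HY mice. The gene left out was not called in WT mice and is not reported here.

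Outside the target list Gnas, Rxrg and Usp33 were called higher by cold in WT mice. Gnas, which encodes the G protein subunit that couples TSHR and the adrenergic receptors to cyclic AMP, rose from 781 ± 114 to 2195 ± 360 CPM (SD, n = 3, log2 1.49, edgeR adjusted p = 1.3e-04) and was at 882 ± 90.5 and 943 ± 49.6 CPM in HY/HY mice, lower than in WT mice at 8°C (log2 −1.22, edgeR adjusted p = 0.00243). Rxrg, a partner of the receptors on DNA, rose by 0.98 (edgeR adjusted p = 0.0162) and Usp33, which removes ubiquitin from DIO2 and so stabilises it, by 0.64 on the log2 scale (edgeR adjusted p = 0.00306). The call of Rxrg was lost without replicate 1 (edgeR adjusted p = 0.0582) or 2 (0.0645) of WT mice at 30°C. With library totals Usp33 was not called (log2 0.30). Gnas overlaps genes on the opposite strand, and in replicate 1 of HY/HY mice at 30°C it had 21556 counts on the sense strand and 147 when both strands were counted together. The other 14 receptor partners and coregulators, among them corepressors and coactivators, were called neither by cold in either genotype nor between the genotypes at either temperature. Of the subunits of thyrotropin and of its relative thyrostimulin, Tshb had 0 counts, Cga and Gphb5 1 each and Gpha2 9 in all 12 libraries together.

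The genes most like each tested member, by Pearson correlation of log2 CPM over the 12 libraries among 13482 genes with at least 1 CPM on average, are given as a description, since the libraries share groups, depth and scaling. For Dio2 they included Taco1 (0.98) and Clstn3 (0.97), and for Tshr Samd4 (0.95), Cd53 (0.94) and Emx2 (0.94). Akt2 (0.94), Pitpnb (0.93) and Cnih (0.92) came nearest to Slc16a10. The nearest to Thra were Bdh2 (0.95), E230016M11Rik (0.95) and Caprin2 (0.90), and those to Thrb were Wwp1 (0.95), Ric3 (0.94) and Vps29 (0.93).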

How the data were processed

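RNA of scWAT was sequenced as paired reads in 12 libraries from 4 groups of mice. Per the methods, the authors used fastp for trimming and STAR for alignment to mm10, and they deposited raw counts of read pairs per gene without normalization or filter, for both strands and each strand. FastQC and StringTie also appear in the submitters' processing notes, and versions are not given in the sources used here. Pairs aligned to several places were not counted. The entries that name no gene held 55.8% to 63.5% of pairs and entered neither library sizes nor tests.

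For the sense-strand counts edgeR 4.0.16 (R 4.3.3) was used, with filterByExpr, TMM and a quasi-likelihood fit of the 4 group means over all 12 libraries, with 8 residual degrees of freedom and a biological coefficient of variation of 20.7%. Tests are two-sided with Benjamini-Hochberg adjustment over 16540 genes. Standard errors were derived from the fold change and F, with 95% intervals. The labels do not say that replicates are separate animals beyond their titles, so p-values measure the spread between these samples. Symbols came from the gene names table, matching 29944 of 55401 IDs to a unique symbol. Exon lengths came from GENCODE M1, by gene ID, and coordinates from RefSeq for GRCm38.p6.

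All 6 members were described, in every comparison where they were tested, as was each listed pathway gene called in any of 5 comparisons; the 3 genes of highest correlation were named for each member. Some genes that these rules select are not reported here. The members and lists were chosen with earlier results of these data known. The fit was tested on simulated data. No replicate pair agreed within sampling noise (chi-square per degree of freedom 9.81 to 158).

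The titles number the replicates alike in each group. Deviations from the group means correlated by 0.112 to 0.303 in same-numbered HY/HY libraries at 30°C and 8°C, so by the data alone those numbers may pair the libraries; the block changed no member's call there. In the other comparisons 2 of 3 pairs exceeded 0.1. Alternatives were DESeq2 1.42.0, library totals, no filter, at least 10 counts in every library, both strands, mitochondrial genes left out, only the libraries compared, the block, each library left out, and, chosen after seeing the data, both averaged contrasts, the receptor ratio and replicate 2 of WT and 3 of HY/HY mice at 30°C left out together.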

Additional observations from a re-analysis of the deposited data

Results flagged for a closer look

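The cold response differed between the genotypes, by the test of the difference itself over all genes, for 5 of the 44 genes tested from the pathway lists and for no member. By that test 2.07% of all genes were called lower and 0.169% higher. In log2 units, HY/HY minus WT, the difference was −2.19 for Ppargc1a (edgeR adjusted p = 0.039), −2.15 for Me1 (0.0372), −1.96 for Gpd2 (0.0113), −1.83 for Acaca (0.0302) and −1.39 for Gnas (0.0146). All 5 were called higher by cold in WT mice, and in HY/HY mice none was called, with log2 fold changes of 0.53 for Ppargc1a, 0.33 for Gpd2, 0.096 for Gnas, 0.072 for Me1 and −0.24 for Acaca. Me1 and Acaca were called higher in HY/HY than in WT mice at 30°C. The call of Gpd2 held in all 20 alternatives, and those of the other 4 were lost in 4 to 11 of them, with edgeR adjusted p of up to 0.0587 for Gnas, 0.0915 for Acaca, 0.11 for Me1 and 0.116 for Ppargc1a.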

How the results depend on the processing

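Among the alternative values of the members, 660 kept their direction and side of the threshold, 15 gained a call, 6 lost one and 32 changed sign, all of the last among values that were not called. For the 2 members called by cold in WT mice, leaving out single libraries gave 1 to 2 calls and requiring at least 10 counts in every library gave 1, since Dio2 was then not tested. For the 0 called by cold in HY/HY mice, DESeq2 and no filter gave 1, single libraries left out 0 to 1, and leaving out replicate 2 of WT and 3 of HY/HY mice at 30°C together 1. At 8°C between genotypes, only the libraries compared gave 2 calls in place of 1, and single libraries left out 0 to 1. At 30°C DESeq2, no filter and the replicate block gave 1 call in place of 0, and single libraries left out 0 to 1. For averaged cold, library totals gave 2 calls in place of 1, at least 10 counts gave 0, single libraries left out 1 to 2 and both left out 2. Across the genotypes at 30°C the same-numbered libraries correlated by −0.055 to 0.346, and whether their numbers pair them is not known. There the block made the Tshr difference 1.19 (edgeR adjusted p = 0.0393). The block changed no other member's call.

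With library totals the values that changed sign were Slc16a10 by cold in WT (−0.079) and averaged (−0.0044), Tshr by cold in HY/HY (−0.056), and the differences between cold responses of Slc16a10 (0.15) and Thra (0.015). DESeq2 gave 0.0076 for Tshr by averaged cold, and both strands −0.028 for Thra between genotypes at 8°C. Leaving out both libraries at 30°C gave 0.026 for Tshr by cold in WT, −0.67 for Dio2 and −0.12 for Slc16a10 between genotypes at 30°C, 0.44 for the difference of cold responses of Slc16a10, 0.027 for Tshr by averaged cold and −0.91 for Dio2 by averaged genotype. The cause was not tested.

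With single libraries left out, log2 values ranged from −0.26 to 0.028 for Tshr by cold in WT, −0.067 to 0.46 for Slc16a10 and −0.29 to 0.39 for Tshr by cold in HY/HY, −0.032 to 0.061 for Thra between genotypes at 8°C, −1.0 to 1.94 for Dio2 and 0.10 to 0.67 for Slc16a10 between genotypes at 30°C, −0.36 to 0.21 for Slc16a10 and −0.17 to 0.51 for Tshr in the difference of cold responses, −0.20 to 0.13 for Tshr by averaged cold and −1.08 to 0.39 for Dio2 by averaged genotype.

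Of the 24 levels per kilobase, 17 moved by less than 1 SD with the longest transcript in place of all exons. The 7 that moved further were Thra in every group, Slc16a10 at 8°C in both genotypes and Thrb in WT mice at 8°C. With 3 libraries a group, an exact permutation of libraries cannot give a p below 0.1, and low members such as Dio2 at 30°C rest on 8 to 156 counts.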
